A study of Mus musculus with 16 samples.

Results

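TNF superfamily ligand RNA was measured in naive T cells sorted by lineage and by surface CD5. The 8 ligand genes were chosen by name from the table of gene counts: Tnf, Lta, Ltb, Cd40lg, Fasl, Tnfsf8, Tnfsf10 and Tnfsf14. They are 8 of 24421 genes in the table, and all 8 passed the filter on low counts that left 13554 genes for testing. The cells came from lymph nodes of C57BL/6 mice, were negative for CD25 with high CD62L and low CD44 (the surface profile of naive cells), and no treatment or gene change is named in the labels. CD8 CD5hi, CD8 CD5lo, CD4 CD5hi and CD4 CD5lo cells are the 4 groups, where CD5hi is the third of CD8+ or CD4+ cells brightest for CD5 and CD5lo the third dimmest for it. Each group had 4 biological replicates, 16 libraries in all, and by its title the study concerns how CD5 relates to basal NF-kB signalling. The labels give neither the age and sex of the mice nor whether replicates were separate animals, so p-values measure only the spread between these libraries.

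TNF superfamily ligands are trimeric proteins, most of them anchored in the membrane of immune cells, and some are shed by proteases. They bind receptors of the TNF receptor superfamily on the same or neighbouring cells, which recruit TRAF adaptors to switch on NF-kB and MAP kinases or, for receptors with a death domain, caspases. Several of the ligand genes are themselves NF-kB or NFAT targets, and in T cells most are known for their induction after activation, so their RNA in naive cells is a resting level. CD5 restrains T cell receptor signalling, and its surface level on a naive T cell follows how strongly that cell recognises self.

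The members fell into a shared locus and scattered single genes. Ltb (17:35194439-35196320, plus strand), Tnf (17:35199381-35202007, minus strand) and Lta (17:35203165-35205351, minus strand) are neighbours in the major histocompatibility complex (GRCm38, GENCODE vM21), with 3060 bp between Ltb and Tnf and 1157 bp between Tnf and Lta. Tnfsf14 lies elsewhere on that chromosome (17:57189492-57194177, minus strand). Fasl (1:161780689-161788495, minus strand), Tnfsf10 (3:27317028-27342427, plus strand), Tnfsf8 (4:63831308-63861347, minus strand) and Cd40lg (X:57212143-57224042, plus strand) lie on other chromosomes. No exonic base of any of the 8 genes is shared with another annotated gene, which matters because the strand setting of the counting is not given.

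Promoters are shown for the members whose RNA changed with CD5 (Tnf and Tnfsf14) and for the neighbours of Tnf, because the study concerns NF-kB. The stretches below end before the annotated gene start, with each gene's sense strand written 5′ to 3′ (RefSeq, GRCm38.p6). Capitals mark matches to a kappa B motif (the NF-kB site, by its general consensus), to the AP-1 letters TGANTCA or to the NFAT core GGAAAA, searched on both strands.
Tnf, chr17:35202008-35202257, minus strand: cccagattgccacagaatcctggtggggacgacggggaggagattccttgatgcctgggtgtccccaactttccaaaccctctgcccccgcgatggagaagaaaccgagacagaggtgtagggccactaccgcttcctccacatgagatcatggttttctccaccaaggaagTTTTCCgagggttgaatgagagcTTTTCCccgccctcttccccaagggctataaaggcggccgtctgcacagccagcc
Lta, chr17:35205352-35205601, minus strand: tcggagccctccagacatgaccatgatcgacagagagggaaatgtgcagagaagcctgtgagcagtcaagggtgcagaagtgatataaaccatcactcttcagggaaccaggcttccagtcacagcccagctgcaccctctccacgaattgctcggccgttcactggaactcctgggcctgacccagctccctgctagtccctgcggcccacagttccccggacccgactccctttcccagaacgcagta
Ltb, chr17:35194257-35194438, plus strand: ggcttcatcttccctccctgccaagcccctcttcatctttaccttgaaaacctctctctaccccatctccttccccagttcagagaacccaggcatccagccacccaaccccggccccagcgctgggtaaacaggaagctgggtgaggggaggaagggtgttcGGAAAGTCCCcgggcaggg
Tnfsf14, chr17:57194182-57194431, minus strand: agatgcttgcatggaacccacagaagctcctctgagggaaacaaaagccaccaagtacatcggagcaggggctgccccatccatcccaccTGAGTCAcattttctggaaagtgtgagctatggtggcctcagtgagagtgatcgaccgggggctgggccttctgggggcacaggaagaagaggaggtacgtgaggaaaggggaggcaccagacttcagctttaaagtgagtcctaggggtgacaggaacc
Tnf held 2 NFAT core matches on the opposite strand, 78 to 73 and 55 to 50 bases upstream of the RefSeq start. Ltb held 1 kappa B match, also on the opposite strand, 87 to 78 bases upstream, and Tnfsf14 held 1 AP-1 match, 160 to 154 bases upstream. These positions count from the RefSeq start, which for Ltb lies inside the annotated gene, past the end of the printed stretch. The Lta stretch, and those of Tnfsf8 and Tnfsf10, held none of the 3 motifs, and Fasl held 1 NFAT core match. Of 32536 RefSeq promoter stretches of 250 bases, 5.03% held the kappa B motif, 6.73% AP-1 and 20.4% the NFAT core, so these motifs are common and a match is a description of the letters. RefSeq promoter entries matched 7 of the 8 members, and those of Ltb, Tnfsf8 and Tnfsf10 were cut to 182, 187 and 201 bases to end before the gene.

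Library totals ran from 71447252 to 93418385 counts. The sort was visible in the RNA: Cd5 averaged 498 CPM in CD8 CD5hi and 200.4 CPM in CD8 CD5lo libraries, and 1386 CPM in CD4 CD5hi and 255 CPM in CD4 CD5lo libraries (CPM, the read count scaled to library size after TMM normalisation). All 11 T cell markers checked were detected in every library. B cell markers stood apart in CD8 CD5hi replicate 4, CD8 CD5lo replicate 3 and CD4 CD5lo replicate 3, where 15 markers summed to 389 to 996 CPM, against 11.4 to 72.8 CPM in the other 13 libraries. Cd4 RNA, which CD8 cells should lack, was 62.2 CPM in CD8 CD5hi replicate 4 and 27.2 CPM in CD8 CD5lo replicate 3, and 2.51 CPM or less in the other 6 libraries of CD8 cells. Results that rest on these 3, called the B-marker libraries from here on, are given with and without them, and in bulk samples fewer cells of a type and less RNA per cell cannot be told apart.

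Per length of exon, Ltb was the most abundant ligand RNA in every group. Ltb encodes lymphotoxin beta, which with lymphotoxin alpha forms the membrane ligand of the lymphotoxin beta receptor on stromal cells of lymphoid organs. It averaged 317 and 386 CPM per kb in CD8 CD5hi and CD8 CD5lo libraries, and 389 and 436 CPM per kb in CD4 CD5hi and CD4 CD5lo libraries. Summed over the 8 ligands, the level per kb was 363 ± 59.5 in CD8 CD5hi, 437 ± 49.6 in CD8 CD5lo, 533 ± 49.7 in CD4 CD5hi and 584 ± 64.9 CPM per kb in CD4 CD5lo libraries (SD, n = 4 each). Ltb made up 87.3% and 88.2% of that sum in CD8 CD5hi and CD8 CD5lo cells, and 72.8% and 74.4% in CD4 CD5hi and CD4 CD5lo cells. Cd40lg held the next place in both CD4 groups, at 82.1 and 86.8 CPM per kb in CD5hi and CD5lo cells, and the seventh place of the 8 in both CD8 groups. Fasl was lowest in both CD8 groups, and Tnfsf14 lowest in both CD4 groups.

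**Figure D1:**
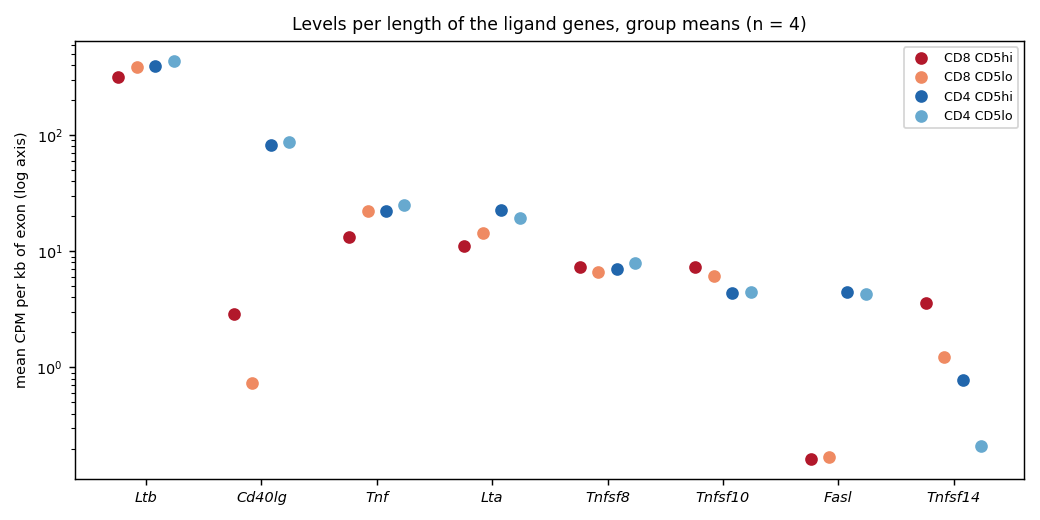
Mean level of each ligand RNA in CPM per kb of exon (log axis), 1 point per group (n = 4 libraries). Ltb sits at 317 to 436 CPM per kb in all groups, whereas Cd40lg and Fasl separate CD4 from CD8 groups and Tnfsf14 steps down from CD8 CD5hi to CD4 CD5lo.

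Tnfsf14 was the ligand gene that changed with CD5 in both lineages, and it rose. It encodes LIGHT, a ligand of HVEM and of the lymphotoxin beta receptor that costimulates T cells. In CD8 CD5hi libraries it had 7.06, 8.32, 5.49 and 5.86 CPM (replicates 1 to 4, as throughout), against 2.09, 2.27, 2.02 and 2.67 CPM in CD8 CD5lo libraries. The groups did not overlap, and the log2 change was 1.56 ± 0.22 (SE; 2.95-fold; edgeR adjusted p = 0.000385). In CD4 CD5hi libraries it had 1.95, 1.21, 0.951 and 1.65 CPM, against 0.361, 0.299, 0.522 and 0.384 CPM in CD4 CD5lo libraries. Every CD4 CD5hi library was again above every CD4 CD5lo library, with a log2 change of 1.87 ± 0.24 (3.66-fold; edgeR adjusted p = 0.000137). The 4 groups formed a ladder with no overlap at any step, CD8 CD5hi above CD8 CD5lo, then CD4 CD5hi, then CD4 CD5lo. At the foot of it the counts were low, 22 to 40 a library in CD4 CD5lo cells, against 74 to 152 in CD4 CD5hi cells. All of those CD4 CD5lo counts are even, as most low counts in the table are, so each may stand for fewer reads than its value. With all counts halved the log2 changes were 1.57 ± 0.22 in CD8 and 1.87 ± 0.25 in CD4 cells (edgeR adjusted p = 0.000275 and 0.000181). Without the 3 B-marker libraries the log2 changes were 1.58 ± 0.25 in CD8 cells and 2.04 ± 0.27 in CD4 cells (edgeR adjusted p = 0.000834 and 0.000358).

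Marker lists of other T cell states moved with CD5 as well, and their part in the Tnfsf14 result was not tested. The 8 regulatory T cell markers, all detected in every library, summed to 205 to 225 CPM in CD8 CD5hi against 116 to 158 CPM in CD8 CD5lo libraries, and to 389 to 471 CPM in CD4 CD5hi against 125 to 156 CPM in CD4 CD5lo libraries. Izumo1r alone averaged 262 CPM in CD4 CD5hi and 48.7 CPM in CD4 CD5lo libraries. Of the 8, 4 were called higher in CD8 and 6 in CD4 cells, where 5.95% and 2.68% of all genes were. Il2ra and Ctla4 were called in neither lineage. Foxp3, which specifies regulatory T cells, had 1.47, 2.35, 1.77 and 8.31 CPM in CD8 CD5hi and 1.45, 1.70, 4.16 and 1.59 CPM in CD8 CD5lo libraries. Its high value in each CD8 group was that of the B-marker library, and its CD8 change of 0.65 ± 0.47 did not pass (edgeR adjusted p = 0.458; 0.25 ± 0.22 and 0.514 without the 3 libraries). In CD4 cells Foxp3 averaged 17.5 CPM in CD5hi and 4.96 CPM in CD5lo libraries and rose (log2 change 1.81 ± 0.47, edgeR adjusted p = 0.0370; 1.91 ± 0.20 and 5.19e-05 without the 3 libraries).

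Of 16 effector and memory markers, 12 to 16 were detected per library and 15 were tested. They summed to 996 to 1156 CPM in CD8 CD5hi against 725 to 776 CPM in CD8 CD5lo libraries, and to 177 to 217 CPM in CD4 CD5hi against 127 to 149 CPM in CD4 CD5lo libraries. In CD8 cells 4 were called higher and 1 lower with a median log2 change of 0.69, and in CD4 cells 3 higher and 3 lower with a median of -0.70. Of all genes 5.95% were called higher and 3.51% lower in CD8 cells. In CD4 cells 4.08% of all genes were called. Those called higher in CD5hi cells were 2.68% of all genes, and the rest of the calls were lower. The medians over all genes were -0.0028 in CD8 and -0.0075 in CD4 cells. The 4 called higher in CD8 CD5hi cells included Tbx21 (log2 change 2.76 ± 0.44, edgeR adjusted p = 0.000972), Eomes (1.41 ± 0.21, 0.000601) and Cd44 (1.33 ± 0.36, 0.0268). The CD4 sums were made up largely of Id2, an inhibitor of E proteins (116 CPM in CD5hi and 70.8 CPM in CD5lo libraries), and Il2rb, an interleukin-2 and interleukin-15 receptor chain (50.6 and 13.4 CPM). Both rose in CD4 CD5hi cells (log2 changes 0.71 ± 0.17 and 1.92 ± 0.24, edgeR adjusted p = 0.0210 and 0.000122), though the Id2 call was lost without the 3 B-marker libraries (adjusted p = 0.0648). The 3 that fell in CD4 CD5hi cells encode cytotoxic granule proteins, Gzma (-3.03 ± 0.43, edgeR adjusted p = 0.000361), Prf1 (-0.98 ± 0.19, 0.00503) and Nkg7 (-2.40 ± 0.63, 0.0435; -1.04 ± 0.25 and 0.0339 without the 3 libraries).

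The 7 natural killer cell markers summed to 4.48 to 8.75 CPM in CD8 CD5hi, 0.991 to 4.85 CPM in CD8 CD5lo, 0.578 to 0.859 CPM in CD4 CD5hi and 0.358 to 1.89 CPM in CD4 CD5lo libraries. Of the 3 that were tested, Klrb1c, which encodes the natural killer antigen NK1.1, was called higher in CD8 CD5hi cells, at 4.12 CPM against 1.14 CPM in CD8 CD5lo libraries (log2 change 1.86 ± 0.40, edgeR adjusted p = 0.00767; 2.16 ± 0.39 and 0.00253 without the 3 libraries). Ncr1, a defining natural killer gene, was at 0.966 CPM in CD8 CD5hi replicate 4, 0.529 CPM in CD8 CD5lo replicate 3 and 0 to 0.0264 CPM in the other 6 CD8 libraries.

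Tnf fell with CD5 in CD8 cells. It encodes TNF, the inflammatory cytokine that signals through the receptors Tnfrsf1a and Tnfrsf1b. CD8 CD5hi libraries had 21.7, 19.7, 18.7 and 26.1 CPM, and CD8 CD5lo libraries had 40.4, 36.4, 35.6 and 33.1 CPM. No CD8 CD5hi library reached the lowest CD8 CD5lo library, and Tnf fell by 0.76 ± 0.16 on the log2 scale (0.592-fold; edgeR adjusted p = 0.00733). In CD4 cells the values were 46.2, 34.8, 37.0 and 27.1 CPM in CD5hi and 50.9, 40.0, 41.8 and 30.3 CPM in CD5lo libraries. These CD4 groups overlapped widely (log2 change -0.17 ± 0.16, edgeR adjusted p = 0.853). Within same-numbered CD4 pairs the CD5hi to CD5lo ratio was nevertheless 0.871 to 0.907 in all 4 pairs. Fitted with the replicate number as a block, the CD4 log2 change was -0.17 ± 0.13 (edgeR adjusted p = 0.528). The difference between the CD8 and CD4 changes, without the block, was -0.59 ± 0.23 and did not pass (edgeR adjusted p = 0.481). Without the 3 B-marker libraries the CD8 change was -0.86 ± 0.19 (edgeR adjusted p = 0.0105).

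Lta, the neighbour of Tnf that encodes lymphotoxin alpha, stood lower in CD8 CD5hi cells and higher in CD4 CD5hi cells than in their CD5lo counterparts. Neither difference passed the main edgeR test. CD8 CD5hi libraries had 14.1, 15.3, 12.7 and 19.5 CPM, and CD8 CD5lo libraries 19.7, 18.4, 19.1 and 22.5 CPM. Replicate 4, one of the libraries rich in B cell markers, was the CD8 CD5hi library that overlapped the CD8 CD5lo group (log2 change -0.37 ± 0.11, edgeR adjusted p = 0.0527). On all libraries the CD8 fall passed with DESeq2 (-0.37 ± 0.12, adjusted p = 0.0216) and limma voom (-0.39 ± 0.12, adjusted p = 0.0441). Without CD8 CD5hi replicate 4 alone the change was -0.51 ± 0.097 (edgeR adjusted p = 0.00291), and without all 3 libraries rich in B cell markers -0.51 ± 0.11 (edgeR adjusted p = 0.00809). In CD4 cells the values were 35.2, 30.0, 28.7 and 32.3 CPM in CD5hi and 28.7, 26.6, 25.2 and 26.0 CPM in CD5lo libraries. All CD4 CD5hi libraries but replicate 3 lay above every CD4 CD5lo library, and all 4 same-numbered pairs had a ratio above 1 (1.13 to 1.25). The CD4 log2 change of 0.25 ± 0.11 did not pass (edgeR adjusted p = 0.384, and 0.109 with the replicate block). The difference between the CD8 and CD4 changes was -0.62 ± 0.16 (edgeR adjusted p = 0.137). That difference passed without CD8 CD5hi replicate 4 (-0.75 ± 0.13, edgeR adjusted p = 0.0134) and without the 3 libraries (-0.73 ± 0.15, edgeR adjusted p = 0.0345).

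Ltb did not pass the test for CD5 in either lineage without the replicate block. CD8 CD5hi libraries had 585, 433, 393 and 514 CPM, against 658, 532, 513 and 635 CPM in CD8 CD5lo libraries. The values overlapped, with a log2 change of -0.28 ± 0.14 (edgeR adjusted p = 0.255). In CD4 cells Ltb had 671, 500.3, 541 and 649 CPM in CD5hi and 797, 543, 631 and 675 CPM in CD5lo libraries, again overlapping (log2 change -0.16 ± 0.14, edgeR adjusted p = 0.815; 0.105 with the replicate block). The ratio within same-numbered CD4 pairs was below 1 in all 4, from 0.842 to 0.961. Same-numbered CD8 libraries, which were not taken as paired, also had ratios below 1 in all 4, from 0.766 to 0.889. With the replicate block the CD8 change was called (-0.29 ± 0.058, edgeR adjusted p = 0.00260). Over the 16 libraries Tnf, Lta and Ltb had pairwise Pearson correlations of log2 CPM of 0.711 (Tnf and Lta), 0.673 (Tnf and Ltb) and 0.621 (Lta and Ltb), given as a description, since these libraries share the split by lineage.

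**Figure D2:**
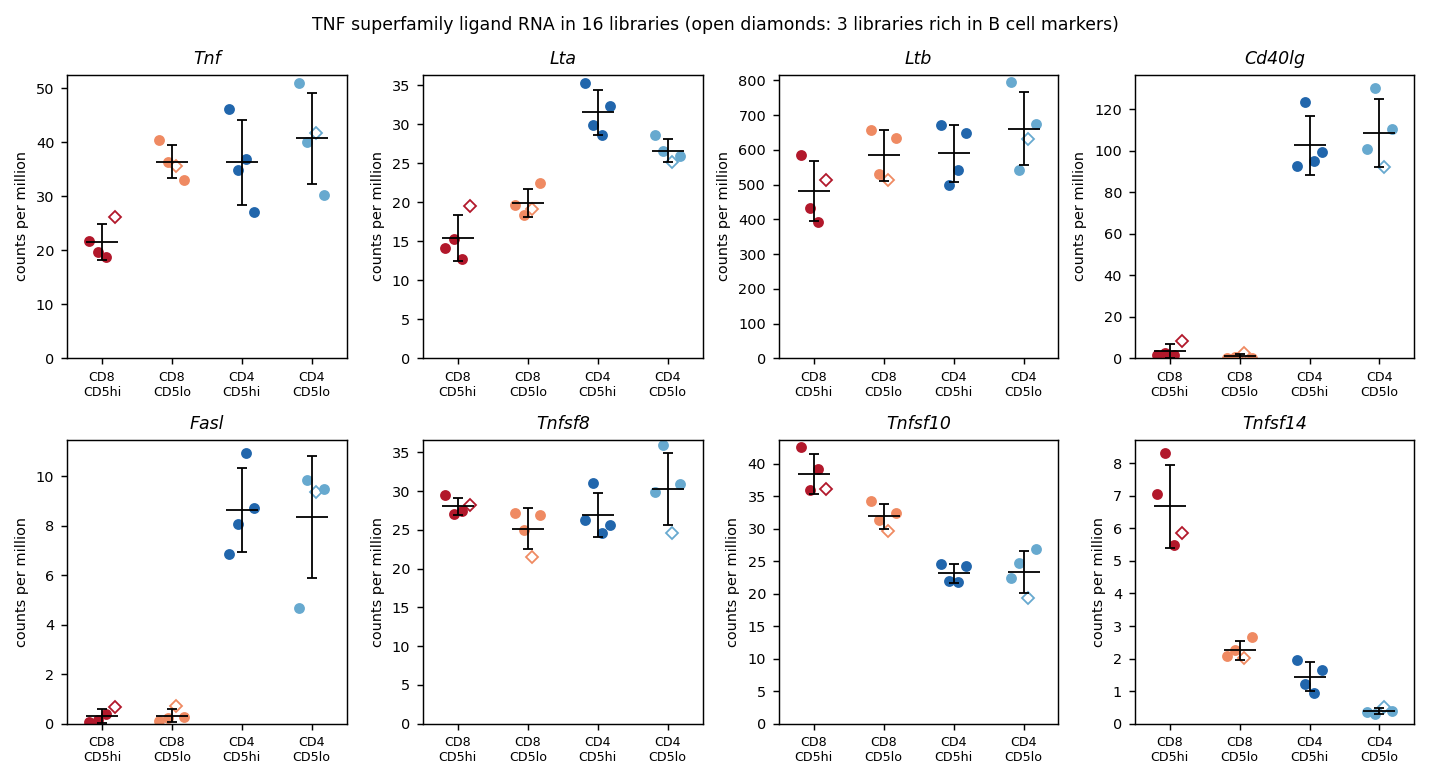
RNA level of each ligand gene in CPM, 1 point per library, for CD8 CD5hi, CD8 CD5lo, CD4 CD5hi and CD4 CD5lo cells; black lines give the mean and SD (n = 4), and open diamonds mark the 3 libraries rich in B cell markers. Tnfsf14 steps down over the 4 groups without overlap, Tnf is lowest in CD8 CD5hi cells, and Cd40lg and Fasl are near 0 in CD8 cells.

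Cd40lg marked the CD4 lineage. It encodes CD40 ligand, by which helper T cells license B cells and dendritic cells. CD8 CD5hi libraries had 1.42, 2.82, 1.58 and 8.49 CPM, and CD8 CD5lo libraries 0.225, 0.433, 2.72 and 0.302 CPM. The highest value of each CD8 group belonged to its library rich in B cell markers. With all libraries the CD8 groups overlapped and the CD5 change of 2.00 ± 0.65 on the log2 scale did not pass (edgeR adjusted p = 0.0695). CD4 CD5hi libraries had 92.8, 123, 94.8 and 99.5 CPM and CD4 CD5lo libraries 101, 130.2, 92.4 and 110.3 CPM. These overlapped, with a log2 change of -0.08 ± 0.54 (edgeR adjusted p = 0.995), and all lay far above the CD8 libraries.

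Cd40lg RNA was also set against Cd4 RNA within each library. The ratio of Cd40lg to Cd4 was 0.136 in CD8 CD5hi replicate 4 and 0.0999 in CD8 CD5lo replicate 3, the 2 CD8 libraries with most Cd4 RNA, beside 0.0825 to 0.122 in the 8 CD4 libraries. It was 2.65 to 3.81 in the other 3 CD8 CD5hi libraries and 0.173 to 0.395 in the other 3 CD8 CD5lo libraries. In those 6 libraries, Cd40lg was 1.94 ± 0.765 CPM in CD8 CD5hi and 0.320 ± 0.106 CPM in CD8 CD5lo libraries (SD, n = 3 each), and the groups did not overlap. Without the 3 B-marker libraries, Cd40lg rose by 2.61 ± 0.29 on the log2 scale in CD8 CD5hi cells (edgeR adjusted p = 5.84e-05). The CD8 minus CD4 difference of the CD5 changes was then 2.76 ± 0.35 (edgeR adjusted p = 0.00244), against 2.08 ± 0.85 with all libraries (edgeR adjusted p = 0.534). Leaving out CD8 CD5lo replicate 3 alone gave a CD8 change of 3.46 ± 0.58 (edgeR adjusted p = 0.00200), leaving out CD8 CD5hi replicate 4 alone gave 1.13 (edgeR adjusted p = 0.224), and leaving out CD8 CD5hi replicate 1 alone gave 2.27 ± 0.65 (edgeR adjusted p = 0.0491).

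**Figure D3:**
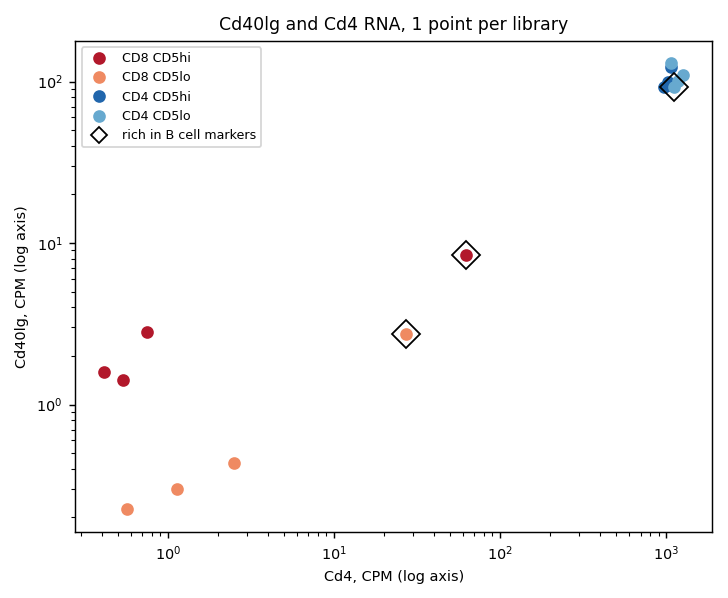
Cd40lg against Cd4 RNA in CPM, 1 point per library on log axes, with diamonds around the 3 libraries rich in B cell markers. CD8 CD5hi replicate 4 and CD8 CD5lo replicate 3 lie to the right at 62.2 and 27.2 CPM of Cd4, while the other CD8 CD5hi libraries hold 1.42 to 2.82 CPM of Cd40lg at under 1 CPM of Cd4.

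The death ligands split by lineage in opposite directions. Fasl encodes Fas ligand, which triggers apoptosis through Fas and is known from activated cytotoxic cells. In these naive cells it was low in CD8 libraries, with 0.0536, 0.159, 0.392 and 0.661 CPM in CD8 CD5hi and 0.106, 0.234, 0.696 and 0.280 CPM in CD8 CD5lo libraries, or 4 to 52 counts each. CD4 CD5hi libraries had 6.85, 8.07, 10.9 and 8.71 CPM, and CD4 CD5lo libraries 4.69, 9.85, 9.38 and 9.50 CPM. CD8 and CD4 libraries did not overlap at either CD5 level. With CD5 itself the CD8 groups overlapped, as did the CD4 groups, and the log2 changes were -0.04 ± 0.57 in CD8 and 0.05 ± 0.47 in CD4 cells (edgeR adjusted p = 0.979 and 0.998). Fasl counts were 363 to 850 a library in CD4 cells, and all 8 CD8 counts are even.

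Tnfsf10 encodes TRAIL, which triggers apoptosis through the death receptor Tnfrsf10b. CD8 CD5hi libraries had 42.5, 36.0, 39.1 and 36.2 CPM, and CD8 CD5lo libraries 34.3, 31.4, 29.7 and 32.4 CPM. Every CD8 CD5hi library was above every CD8 CD5lo library, but the log2 change of 0.27 ± 0.094 did not pass (edgeR adjusted p = 0.0912). It passed with DESeq2 (adjusted p = 0.0389) and without CD4 CD5lo replicate 3 alone (edgeR adjusted p = 0.0405). It did not pass with limma voom, nor without all 3 B-marker libraries (0.28 ± 0.096, edgeR adjusted p = 0.0833). CD4 CD5hi libraries had 24.5, 21.9, 21.9 and 24.3 CPM, and CD4 CD5lo libraries 22.4, 24.7, 19.3 and 26.9 CPM. These overlapped throughout, with a log2 change of -0.01 ± 0.094 (edgeR adjusted p = 0.996).

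Tnfsf8, which encodes CD30 ligand, differed least over the groups, with means of 25.2 to 30.3 CPM. Its values were 29.5, 27.0, 27.4 and 28.3 CPM in CD8 CD5hi and 27.2, 25.0, 21.5 and 27.0 CPM in CD8 CD5lo libraries. CD4 CD5hi libraries had 26.3, 31.0, 24.7 and 25.6 CPM, and CD4 CD5lo libraries 29.9, 35.9, 24.6 and 30.9 CPM. Neighbouring groups overlapped at every step of the order. The CD5 changes of 0.16 ± 0.11 in CD8 and -0.17 ± 0.11 in CD4 cells did not pass (edgeR adjusted p = 0.432 and 0.619).

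For CD5, 2 of the 8 ligand genes were called in CD8 cells, where 9.46% of all 13554 genes were, and 1 of 8 in CD4 cells, where 4.08% were. In CD8 cells Tnfsf14 was the call upward and Tnf the call downward (5.95% of all genes were called higher and 3.51% lower). In CD4 cells the 1 call, Tnfsf14, was upward (2.68% of all genes were called higher). With the replicate block the CD4 background was 9.68% (1312 genes, against 553 without it), and Tnfsf14 remained the 1 ligand call. Median log2 changes of the 8 were 0.06 in CD8 and -0.05 in CD4 cells, beside -0.0028 and -0.0075 over all genes. The test of the difference between lineages called none of the 8 by edgeR (4 had an unadjusted p under 0.05: Lta, Tnf, Cd40lg and Tnfsf8), none by limma voom and 1, Lta, by DESeq2 (adjusted p = 0.0263), where edgeR called 0.310% of all genes.

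Between lineages more of the ligand genes differed. Among CD5hi cells 6 of 8 differed between CD8 and CD4 libraries (2 higher and 4 lower in CD8 cells), where 30.3% of all genes did (15.6% higher and 14.8% lower). Among CD5lo cells 5 of 8 differed (2 higher and 3 lower), where 19.5% of all genes did (10% higher and 9.44% lower). Median log2 changes of the 8 were -0.52 among CD5hi and -0.22 among CD5lo cells, beside 0.010 and 0.00016 over all genes. Cd40lg was 28.7-fold lower in CD8 than in CD4 cells among CD5hi cells (log2 change -4.84 ± 0.65, edgeR adjusted p = 2.92e-05) and 122-fold lower among CD5lo cells (-6.93 ± 0.73, edgeR adjusted p = 3.14e-06). Without the 3 B-marker libraries these log2 changes were -5.70 and -8.46. Fasl was lower by a log2 change of -4.76 ± 0.57 among CD5hi and -4.68 ± 0.57 among CD5lo cells (edgeR adjusted p = 9.71e-06 and 1.45e-05), or -5.36 and -5.24 without those libraries.

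Tnfsf14 and Tnfsf10 were the ligand genes higher in CD8 cells. Tnfsf14 was 4.64-fold higher among CD5hi and 5.76-fold higher among CD5lo cells (log2 changes 2.21 ± 0.23 and 2.53 ± 0.24, edgeR adjusted p = 1.88e-06 and 1.03e-06). Tnfsf10 was 1.66-fold higher among CD5hi and 1.37-fold higher among CD5lo cells (0.73 ± 0.094 and 0.45 ± 0.094, edgeR adjusted p = 1.93e-05 and 0.00223). Lta was lower in CD8 cells among CD5hi (-1.03 ± 0.11, edgeR adjusted p = 4.07e-06) and CD5lo cells (-0.42 ± 0.11, edgeR adjusted p = 0.0154). The CD5lo call of Lta was lost without CD4 CD5lo replicate 1 (edgeR adjusted p = 0.0505) and without CD8 CD5lo replicate 2 (edgeR adjusted p = 0.0562). Tnf was lower in CD8 cells among CD5hi cells (-0.75 ± 0.16, edgeR adjusted p = 0.00219), and among CD5lo cells its log2 change of -0.16 ± 0.16 did not pass (edgeR adjusted p = 0.588). Whether the lineage gap of Tnf differs between CD5 levels is the same test as the difference of the CD5 changes, -0.59 ± 0.23, which did not pass (edgeR adjusted p = 0.481).

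With the replicate number as a block over all 16 libraries, 3 more lineage differences were called. CD8 and CD4 libraries were taken as paired, but the same block also covers CD8 CD5hi with CD8 CD5lo libraries, which were not. Ltb was lower in CD8 cells among CD5hi (-0.30 ± 0.058, edgeR adjusted p = 0.000699) and CD5lo cells (-0.17 ± 0.058, edgeR adjusted p = 0.0325), and Tnfsf8 among CD5lo cells (-0.26 ± 0.081, edgeR adjusted p = 0.0220). Without the block these were -0.29 ± 0.14, -0.18 ± 0.14 and -0.27 ± 0.11 (edgeR adjusted p = 0.132, 0.473 and 0.100). The block raised the background to 46.7% of all genes among CD5hi and 32.1% among CD5lo cells (6336 genes against 4111, and 4345 against 2638).

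**Figure D4:**
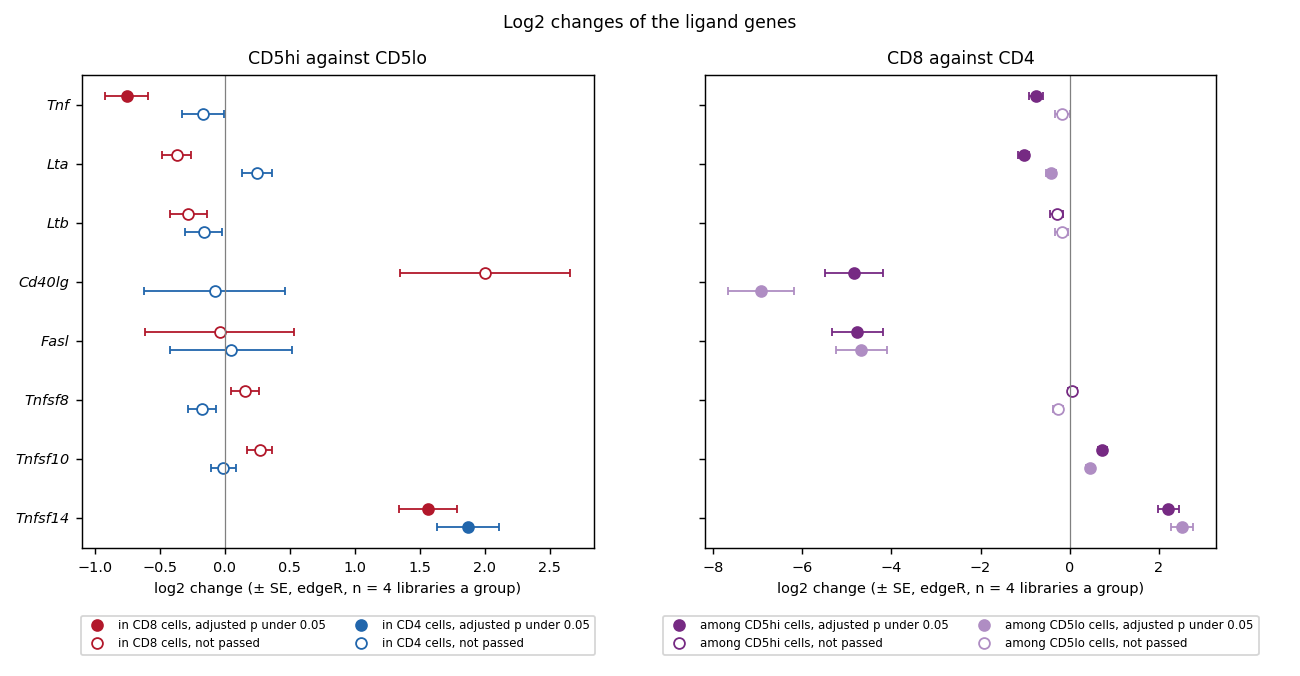
Log2 change (± SE, edgeR, n = 4 libraries a group) of each ligand gene for CD5hi against CD5lo cells, left, and for CD8 against CD4 cells, right; filled points have an adjusted p under 0.05. Tnfsf14 is the gene with filled points to the right in all comparisons, while Cd40lg and Fasl reach -4.68 to -6.93 between lineages.

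Of 10 other ligand genes of the superfamily, 4 passed the filter on low counts (Tnfsf4, Tnfsf9, Tnfsf11 and Tnfsf13b), and edgeR called none for CD5. In each lineage 2 of the 4 had an unadjusted p under 0.05; DESeq2 called none in CD8 and 1 in CD4 cells, and limma voom 1 and 2. Tnfsf11 encodes RANKL, a ligand for osteoclasts and dendritic cells, and averaged 4.97 ± 1.64 CPM in CD8 CD5hi, 2.16 ± 2.27 in CD8 CD5lo, 15.3 ± 2.39 in CD4 CD5hi and 4.77 ± 2.24 CPM in CD4 CD5lo libraries (SD, n = 4 each). Its log2 changes for CD5 were 1.21 ± 0.53 in CD8 and 1.68 ± 0.53 in CD4 cells (edgeR adjusted p = 0.183 and 0.103). Without the 3 B-marker libraries they were 2.43 ± 0.36 and 2.01 ± 0.32 (edgeR adjusted p = 0.000574 and 0.00185). Without CD8 CD5lo replicate 3 alone they were 2.23 in CD8 and 1.68 in CD4 cells (edgeR adjusted p = 0.00406 and 0.0124). The replicate block gave calls in CD4 cells for Tnfsf11 (1.84 ± 0.31, edgeR adjusted p = 0.00127) and for Tnfsf4, the OX40 ligand (2.46 ± 0.61, edgeR adjusted p = 0.0195), which reached at most 32 counts in a library. Between lineages Tnfsf11 was lower in CD8 than in CD4 cells among CD5hi cells (-1.62 ± 0.52, edgeR adjusted p = 0.0273), a call lost when leaving out any 1 of 5 single libraries (adjusted p up to 0.0658) and kept without the 3 rich libraries (adjusted p = 0.00331). Among CD5lo cells its change of -1.15 ± 0.53 did not pass (edgeR adjusted p = 0.162). It passed with the replicate block (-1.37 ± 0.33, edgeR adjusted p = 0.00465), with limma voom (-1.63, adjusted p = 0.0348), without CD8 CD5lo replicate 3 alone (-2.17 ± 0.42, edgeR adjusted p = 0.00156) and without the 3 libraries (-1.84 ± 0.35, edgeR adjusted p = 0.00222).

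Of 11 receptors of the 8 ligands 9 were tested for CD5. In CD8 cells 1 of 9 was called, and it was lower, a share near the 9.46% of all genes called there (3.51% lower). In CD4 cells none was, where 4.08% of all genes were (1 had an unadjusted p under 0.05 in edgeR, DESeq2 called 1 and limma voom none). Tnfrsf1a, the TNF receptor with a death domain, averaged 42.6 CPM in CD8 CD5hi and 57.2 CPM in CD8 CD5lo libraries, and fell by 0.43 ± 0.087 on the log2 scale (edgeR adjusted p = 0.00516). In CD4 cells it averaged 63.2 CPM in CD5hi and 77.1 CPM in CD5lo libraries (-0.29 ± 0.087, edgeR adjusted p = 0.0878). With the replicate block the CD4 change was called (-0.29 ± 0.065, edgeR adjusted p = 0.00947), as was that of the TRAIL receptor Tnfrsf10b (-0.44 ± 0.13, edgeR adjusted p = 0.0400). Between lineages Tnfrsf1a was lower in CD8 cells at both CD5 levels (-0.57 ± 0.087 among CD5hi and -0.43 ± 0.087 among CD5lo cells, edgeR adjusted p = 0.000109 and 0.00179). Tnfrsf1b, the TNF receptor without a death domain, was higher in CD8 cells (0.51 ± 0.18 and 0.72 ± 0.19, edgeR adjusted p = 0.0472 and 0.0107), but its CD5hi call was lost without the 3 libraries (adjusted p = 0.0909) and when leaving out any 1 of 9 single libraries (adjusted p up to 0.129). Fas, the receptor of Fas ligand, was lower in CD8 cells among CD5hi cells (-0.39 ± 0.11, edgeR adjusted p = 0.0111). With the replicate block its CD5 change differed between lineages (CD8 minus CD4 difference -0.38 ± 0.091, edgeR adjusted p = 0.0391), where 2.8% of all genes were called. That difference includes the CD8 groups, which were not taken as paired. It did not pass without the block (-0.38 ± 0.15, edgeR adjusted p = 0.522), nor without the 3 libraries (-0.27 ± 0.17, 0.694).

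The adaptors and effectors called for CD5 were all lower. All 19 on the list were tested, with 3 called lower and none higher in CD8 CD5hi cells, and 2 lower and none higher in CD4 CD5hi cells. Of all genes 9.46% were called in CD8 cells (3.51% lower) and 4.08% in CD4 cells (553 genes, 363 of them higher and the rest lower). The median log2 changes of the 19 were -0.09 in CD8 and -0.06 in CD4 cells, beside -0.0028 and -0.0075 over all genes. Traf1, an adaptor that is itself a known NF-kB target, averaged 130 CPM in CD8 CD5hi and 187 CPM in CD8 CD5lo libraries (-0.53 ± 0.14, edgeR adjusted p = 0.0245), and 69.5 CPM in CD4 CD5hi and 106 CPM in CD4 CD5lo libraries (-0.60 ± 0.14, edgeR adjusted p = 0.0197). The call was lost when leaving out any 1 of 5 single libraries in CD8 cells (adjusted p up to 0.0973) and of 4 in CD4 cells (up to 0.0766), and its direction was the same in all. Traf5, another adaptor, averaged 53.1 CPM in CD8 CD5hi and 64.8 CPM in CD8 CD5lo libraries (-0.29 ± 0.062, edgeR adjusted p = 0.00697), and 79.5 CPM in CD4 CD5hi and 95.1 CPM in CD4 CD5lo libraries (-0.26 ± 0.061, edgeR adjusted p = 0.0239). In CD4 cells the Traf5 call was lost when leaving out any 1 of 5 single libraries (adjusted p up to 0.0828) and without the 3 rich in B cell markers (adjusted p = 0.0519). A fit of only the compared groups lost the Traf5 call in both lineages (edgeR adjusted p = 0.0503 in CD8 and 0.0593 in CD4 cells). Cflar, the inhibitor of caspase-8, fell by 0.29 ± 0.083 in CD8 cells (edgeR adjusted p = 0.0409), a call lost when leaving out any 1 of 11 single libraries (adjusted p up to 0.139).

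Between lineages 9 of the 19 adaptors and effectors were called among CD5hi cells (2 higher and 7 lower in CD8 cells), where 30.3% of all genes were, and 4 among CD5lo cells (2 and 2), a share near the 19.5% of all genes. With the replicate block these were 2 higher and 9 lower among CD5hi cells (46.7% of all genes called) and 2 higher and 6 lower among CD5lo cells (32.1%). Among CD5hi cells the call of Casp8, the initiator caspase of death receptors (-0.22 ± 0.078, edgeR adjusted p = 0.0431), was lost when leaving out any 1 of 14 single libraries (adjusted p up to 0.131). That of Rnf31, part of the linear ubiquitin ligase, was lost when leaving out any 1 of 7 (up to 0.0935). Among CD5lo cells the call of Traf2 (-0.18 ± 0.059, edgeR adjusted p = 0.0413) was lost when leaving out any 1 of 9 (up to 0.114) and without the 3 libraries (0.205). Traf1 was higher in CD8 cells, with log2 changes of 0.90 ± 0.14 among CD5hi and 0.82 ± 0.14 among CD5lo cells (edgeR adjusted p = 0.000131 and 0.000391). Ripk1, the kinase recruited to TNF receptors, was also higher (0.27 ± 0.054 and 0.26 ± 0.054). Traf5 was lower in CD8 cells, with -0.58 ± 0.062 among CD5hi and -0.55 ± 0.062 among CD5lo cells. Among CD5hi cells Traf2 (-0.33 ± 0.059, edgeR adjusted p = 0.000444), Cflar (-0.33 ± 0.083, 0.00689) and Map3k14 (-0.46 ± 0.12, 0.00729) were lower too. These CD5hi calls were kept under every alternative.

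The 8 proteases and regulators that shed or cut the ligands gave 7 tested genes and no call for CD5 in either lineage by edgeR, DESeq2 or limma voom, and none had an unadjusted p under 0.05. Between lineages Adam17, the TNF-shedding protease, was higher (0.21 ± 0.058, edgeR adjusted p = 0.0187) and Rhbdf2, which brings it to the cell surface, lower (-0.58 ± 0.15, edgeR adjusted p = 0.0101) in CD8 cells among CD5lo cells, 2 of 7 where 19.5% of all genes were called. The Adam17 call was lost without the 3 libraries (adjusted p = 0.0914), without CD4 CD5lo replicate 3 alone (0.0620) and without CD8 CD5lo replicate 2 alone (0.0531). Among CD5hi cells none of the 7 was called (2 had an unadjusted p under 0.05 by edgeR, DESeq2 called 2 and limma voom 1), and the replicate block called Adam10, Adam17 and Rhbdf2. Among CD5lo cells the block added Furin (0.37 ± 0.089, edgeR adjusted p = 0.00496) and Sppl2b (0.16 ± 0.056, edgeR adjusted p = 0.0454), both proteases, as higher in CD8 cells. Of 11 regulators of mRNA decay, which control the life of TNF and other cytokine mRNAs, 1 was called for CD5 in CD8 cells, a share near that of all genes, and none in CD4 cells by edgeR, DESeq2 or limma voom. Zfp36, whose protein tristetraprolin binds the TNF mRNA, averaged 526 CPM in CD8 CD5hi and 719 CPM in CD8 CD5lo libraries (-0.45 ± 0.14, edgeR adjusted p = 0.0493), a call lost without the 3 libraries (adjusted p = 0.0663) and when leaving out any 1 of 14 single libraries (up to 0.189). Between lineages Zfp36l1 was lower in CD8 cells among CD5hi cells (-0.39 ± 0.13, edgeR adjusted p = 0.0396), lost without the 3 libraries (adjusted p = 0.0512) and when leaving out any 1 of 9 single libraries (up to 0.115), and the block added Zfp36l2 and Zc3h12d as lower. The difference of the CD5 changes between lineages was called for none of the genes on these 5 lists by edgeR without the block, DESeq2 or limma voom (1 receptor had an unadjusted p under 0.05 by edgeR), and with the block for Fas alone.

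**Figure D5:**
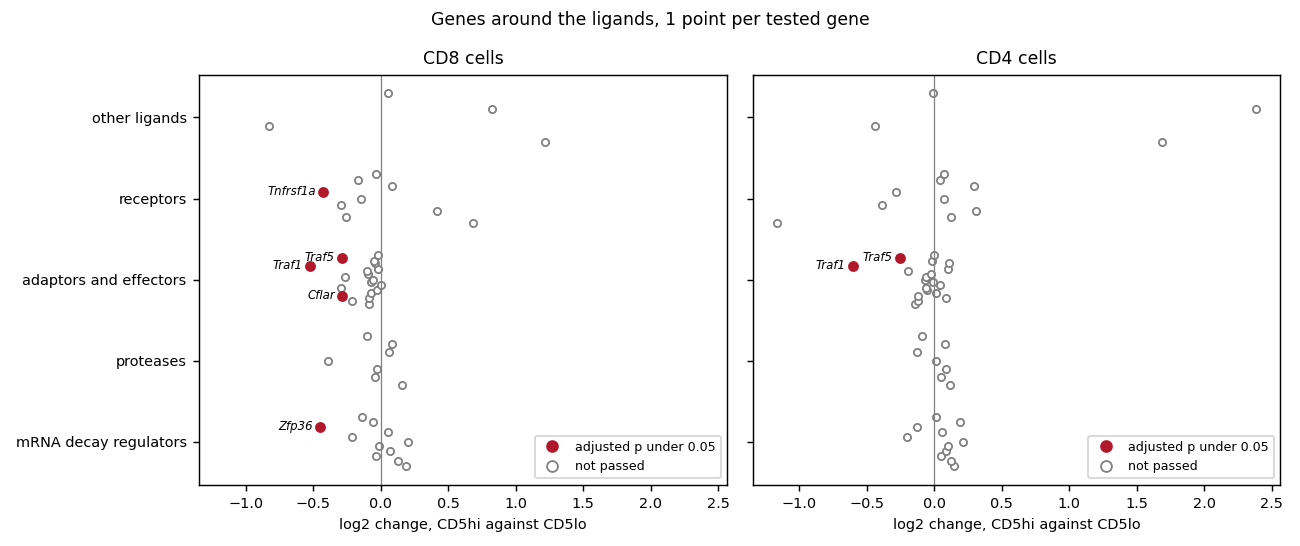
Log2 change for CD5hi against CD5lo cells of each tested gene on 5 lists around the ligands, in CD8 cells, left, and CD4 cells, right (edgeR); filled, named points have an adjusted p under 0.05. All named points lie left of 0, with Traf1 at -0.53 in CD8 and -0.60 in CD4 cells.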

How the data were processed

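RNA sequencing libraries of 16 samples were grouped by their labels, 4 to a group. The submitters' processing notes name the assembly mm10, STAR 2.5.2a for one tool, and also featureCounts 1.4.6-p3 and DESeq2, and per the labels' protocols either of a pair of TruSeq RNA kits (unstranded or stranded) was used; no label says which kit a sample had. The authors deposited whole-number counts per gene, raw by the look of the values. The labels name technical replicates, but the table has 1 column per sample and 0 columns were left over. Totals had a median of 78528233, so counting error is small except for Fasl, Cd40lg and Tnfsf14 where they are low. Even numbers made up 73.9 to 80.5% of the counts between 1 and 9, while among counts of at least 1000 they made up 49.2 to 51.3%, so a low count may stand for fewer reads than its value, and halving all counts was added as an alternative. Date-like entries replaced 27 gene names, which held 0.263% of all counts.

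Counts were tested with edgeR 4.0.16 (R 4.3.3): TMM normalisation (factors 0.981 to 1.02), filterByExpr (minimum total 15, minimum count 10), a term for each group over all 16 libraries with 12 residual degrees of freedom, and the two-sided quasi-likelihood F test, with p-values adjusted by Benjamini-Hochberg over 13554 genes in each of 5 comparisons and a threshold of 0.05. The comparisons were CD5hi against CD5lo in CD8 and in CD4 cells, the difference of these changes, and CD8 against CD4 cells among CD5hi and among CD5lo cells. The SE is the log2 change divided by the square root of F. DESeq2 1.42.0 and limma 3.58.1 (voom), another normalisation, no filter, a fit of only the compared groups, a replicate block and leaving out each library were alternatives; leaving out the 3 libraries rich in B cell markers was chosen after seeing the data. The code was tested on simulated data.

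Replicate numbers were taken to pair libraries where every same-numbered pair deviated together from its group means: correlations were 0.251 to 0.534 for CD4 CD5hi and CD4 CD5lo, 0.235 to 0.538 for CD8 and CD4 among CD5hi and 0.203 to 0.704 among CD5lo cells, but -0.0401 to 0.562 for CD8 CD5hi and CD8 CD5lo, which were not taken as paired. The pairing comes from these correlations, not from the labels. The replicate block was fitted over all 16 libraries, so every result with it also blocks CD8 CD5hi with CD8 CD5lo libraries. No library was a copy of another.

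The members, gene lists and tests were chosen with earlier results of these data known. Named were all 8 ligands, the called members of the other lists (for each list and direction, up to 4 of smallest adjusted p), the 3 genes most like each ligand, and Cd5, Cd4 and Cd8a; Tnfsf11, marker genes other than Cd5, Cd4 and Cd8a, and genes gained under the block or lost without single libraries were named with their values known. Positions of genes come from GENCODE vM21 and promoters from RefSeq (both GRCm38).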

Additional observations from a re-analysis of the deposited data

Results flagged for a closer look

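Among 32 sets of 4 libraries (8 ligand genes in 4 groups), 2 held a library far from the other 3 by Dixon's test at its 95% limit; chance flags about 1 in 20. Cd40lg in CD8 CD5lo replicate 3 was 2.715 CPM, where the other CD8 CD5lo libraries had 0.225 to 0.433 CPM; the same library had 27.2 CPM of Cd4 and is 1 of the 3 rich in B cell markers. Fasl in CD4 CD5lo replicate 1 was 4.694 CPM, where the other CD4 CD5lo libraries had 9.38 to 9.85 CPM; that library was not rich in B cell markers.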

How the results depend on the processing

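Over the 5 comparisons and all alternatives, 906 results of single ligand genes kept direction and call, 15 kept a missing call with the other sign (Fasl for CD5 in both lineages and for their difference, Cd40lg and Tnfsf10 for CD5 in CD4 cells), 24 gained a call, 2 lost one (Lta between lineages among CD5lo cells, given above) and 0 turned direction while called; DESeq2 gave no adjusted p for Cd40lg. Tnfsf14 was called for CD5 in both lineages, and Tnf in CD8 cells, under every alternative (adjusted p up to 0.00499 for Tnfsf14 in CD4, 0.00237 in CD8 and 0.0315 for Tnf). For CD5 in CD8 cells, 2 ligand calls became 4 with DESeq2 (Lta and Tnfsf10 added) and 4 with limma voom (Lta and Cd40lg added). They became 4 without the 3 B-marker libraries and 6 with the replicate block. The block added Lta (edgeR adjusted p = 0.00711), Ltb (0.00260), Cd40lg (0.0420) and Tnfsf10 (0.0228). Replicate numbers were not taken to pair these groups, since replicates 3 and 4, each with a B-marker library, did not deviate together. For the difference between lineages, 0 ligand calls became 1 with DESeq2, 1 with the replicate block (Lta, adjusted p = 0.0150) and 2 without the 3 libraries. Genes called went to 1312 with the replicate block for CD5 in CD4 cells (553 without), to 813 with only the compared groups and 3390 with the replicate block in CD8 cells (1282), to 215 with DESeq2, 379 with the block and 129 without the 3 libraries for the difference (42), and to 6336 and 4345 with the block between lineages among CD5hi (4111) and CD5lo (2638) cells; the cause was not tested. Leaving out single libraries gave 763 to 1647 genes and 2 to 3 ligands for CD5 in CD8 cells, 382 to 635 genes and 1 to 1 ligand in CD4 cells, 8 to 165 genes and 0 to 1 ligands for the difference, 3467 to 4201 genes and 6 to 7 ligands between lineages among CD5hi cells, and 2112 to 2935 genes and 4 to 6 ligands among CD5lo cells. Of these, Tnfsf8 was called between lineages among CD5lo cells without CD4 CD5lo replicate 3 (adjusted p = 0.0222) and Ltb among CD5hi cells without CD8 CD5hi replicate 1 (0.0487). Depth is lowest for Fasl in CD8 cells, at 4 to 52 counts a library.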

Other observations

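The genes whose log2 CPM followed each ligand most closely over the 16 libraries, among about 8960 genes with a mean of at least 5 CPM, are given as a description, since the libraries share the lineage split and their depth. Tnfsf14 was followed by Mthfd1l, Eml3 and Zfp318 (Pearson r = 0.975, 0.974 and 0.970), Tnf by Parp6, Parp10 and Mapkapk5 (0.958, 0.909 and 0.909), Lta by Pyroxd2, Sp6 and Dcaf11 (0.970, 0.968 and 0.960) and Ltb by Wbp1, Fam98c and Abcf3 (0.971, 0.967 and 0.948). Cd40lg was followed by Plxnd1, Zbtb7b and Klhl5 (0.980, 0.978 and 0.977); Zbtb7b encodes ThPOK, the transcription factor that specifies the CD4 lineage. Fasl was followed by Myo10, Aptx and St8sia6 (0.989, 0.989 and 0.987) and Tnfsf10 by Serpinb6b, Ak3 and Fgf13 (0.962, 0.959 and 0.958). Tnfsf8 had no close companion, with Mat2a, Lipa and Ccdc77 at 0.801, 0.764 and 0.757. Among the ligands themselves Cd40lg and Fasl had the highest correlation (0.962), and Fasl and Tnfsf10 the lowest (-0.900).

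The 7 innate-like lymphocyte markers summed to 10.1 to 17.4 CPM in the 3 libraries rich in B cell markers and 1.69 to 4.99 CPM in the other 13, and the 12 myeloid and dendritic cell markers to 58.8 to 78.3 CPM and 47.6 to 58.0 CPM. T cell markers summed to 5827 to 7974 CPM in those 3 libraries and 5577 to 8509 CPM in the other 13.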
